A study of Mus musculus with 22 samples.

Results

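Whole brains of newborn mice differed in their reads of a marker gene of the olfactory bulb, and brains with more and with fewer such reads are compared here. The brains were chosen by the measured count of *Tbx21*, a T-box transcription factor gene that marks the mitral and tufted cells of the bulb. A brain was called high when its library held at least 60 raw *Tbx21* reads and low when it held fewer. Of 22 labelled libraries, 20 have a column of counts and 18 entered the split, of which 8 were high and 10 were low. The split was made on a measured value, so *Tbx21* itself is described and not tested, and the p-values of the other genes say which genes moved with *Tbx21* in these brains, not what a treatment did. Against other genes of the bulb the name of the split held in part: *Cdhr1* of mitral and tufted cells and *Sp8* of interneurons were higher in the high brains, the call of *Sp8* being lost with litter as a block (adjusted p = 0.896, edgeR), while *Eomes*, *Reln*, *Tbr1*, *Th* and *Calb2* did not pass the test.

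The olfactory bulb is the most rostral part of the brain and receives the axons of the sensory neurons of the nose. Mitral and tufted cells are its output neurons. Its interneurons, the granule and periglomerular cells, arise from forebrain progenitors that express Dlx, *Sp8* and related transcription factor genes and migrate into the bulb around and after birth, and ensheathing glia wrap the incoming axons. The bulb sits on a thin stalk at the front of the brain, and the hindbrain and spinal cord at the other end are marked by Hox genes.

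The study compared 2 mouse models of Prader-Willi syndrome, an imprinting disorder, by sequencing polyadenylated RNA of brains at day 0 after birth. PWS-cr pups are heterozygous for a deletion of the critical interval that holds the *Snord116* small nucleolar RNA genes, PWS-IC pups (labelled PWS-ICdel) are heterozygous for a deletion of the imprinting centre inherited from the father, and each model has wild-type (WT) littermates of its own. The 11 libraries of the PWS-cr series are 6 PWS-cr and 5 WT pups, and the 7 of the PWS-IC series used here are 3 PWS-IC and 4 WT pups. A library is 1 pup, and its name gives the litter, the pup and the series, as in 4_3_IC. The high group held 3 PWS-cr pups, 2 PWS-IC pups and 3 WT pups of the PWS-IC series, with 4 females and 4 males. The low group held 3 PWS-cr pups, 5 WT pups of the PWS-cr series, 1 PWS-IC pup and 1 WT pup of the PWS-IC series, with 5 females and 5 males. No strain background is given in the sources for the pups sequenced.

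Total counts ran from 45796030 to 62103143 in the high libraries and from 47113084 to 55562076 in the low ones, so depth overlapped between the groups. Both left-out libraries go against their labels. Library 1_3_IC, labelled a PWS-IC female, held *Snrpn*, which the deletion silences, at 402 CPM (reads divided by the library size in megareads, after TMM scaling) and the Y-linked *Eif2s3y* at 70.8 CPM. Library 1_7_IC, labelled a WT male, held *Snrpn* at 5.64 CPM and *Eif2s3y* at 0.148 CPM. The 18 libraries kept match their labels for sex. Those of the PWS-IC series also match for *Snrpn*, with 4.85 to 8.14 CPM in the 3 PWS-IC pups and 242 to 289 CPM in the 4 WT pups. In the PWS-cr series *Snrpn* was at 258 to 312 CPM in PWS-cr and 242 to 291 CPM in WT pups. It thus does not check the genotype labels of that series.

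The raw *Tbx21* counts of the 3 high PWS-cr pups were 100 in 1_1_Cr, 120 in 1_2_Cr and 100 in 2_2_Cr. Those of the 5 high libraries of the PWS-IC series were 88 in 1_1_IC, 71 in 4_3_IC, 82 in 4_4_IC, 106 in 4_5_IC and 123 in 4_6_IC. The high libraries thus came from both series and from all genotypes but the WT pups of the PWS-cr series, which were all low. In the low group the PWS-cr series gave 11 in 4_3_Cr, 14 in 3_1_Cr, 15 in 1_5_Cr, 21 in 4_2_Cr, 24 in 4_1_Cr, 31 in 3_5_Cr, 34 in 1_3_Cr and 46 in 3_6_Cr. The PWS-IC series gave 14 in 1_10_IC and 15 in 1_5_IC. The libraries nearest the threshold were 4_3_IC with 71 reads inside it and 3_6_Cr with 46 outside it. The mean level was 1.86 ± 0.447 CPM (SD, n = 8) in the high and 0.42 ± 0.2 CPM (SD, n = 10) in the low brains, a fitted difference of 2.60 on the log2 scale, which is a description of the rule.

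**Figure D1:**
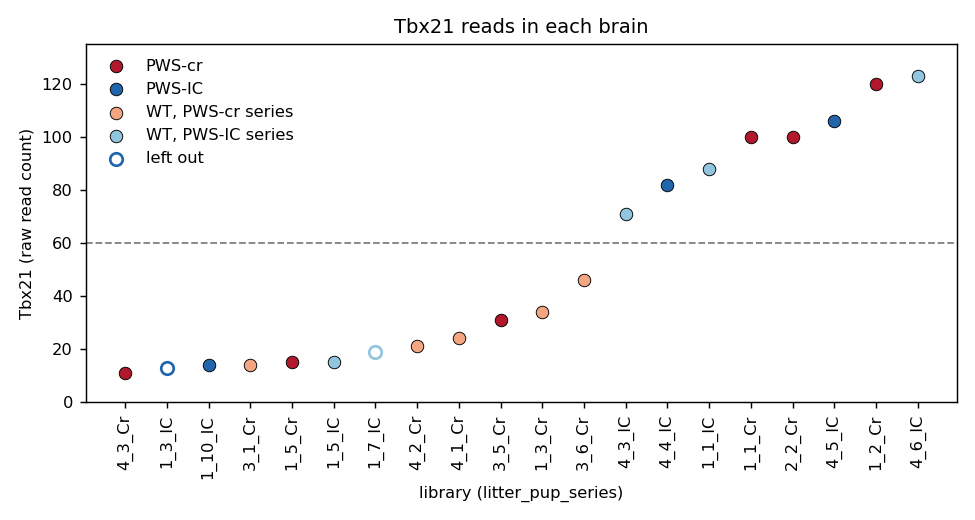
Raw *Tbx21* read count (y axis) of each of the 20 libraries (x axis), ordered by count and coloured by genotype and series. Open circles are the 2 libraries left out and the dashed line is the threshold of 60 reads. The 8 high libraries sit between 71 and 123 reads and the 10 low ones between 11 and 46.

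By genotype, *Tbx21* is likewise described only. In the PWS-cr series the mean was 1.25 ± 1.01 CPM in PWS-cr pups (SD, n = 6) and 0.518 ± 0.215 CPM in WT pups (SD, n = 5). In the PWS-IC series it was 1.17 ± 0.784 CPM in PWS-IC pups (SD, n = 3) and 1.36 ± 0.885 CPM in WT pups (SD, n = 4), and in both series the genotypes overlapped. The 6 PWS-cr pups fell into 3 that were high and 3 that were low, with none between 31 and 100 reads.

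Over both series, 6 of 23573 genes tested passed the test, and all 6 were higher in the high brains. They are *Cdhr1*, *Ms4a15*, *Frmd7*, *Sp8*, *Sall1* and *Cpne6*, which make up 0.0255 percent of the genes tested. With litter as a block only *Cdhr1* was called, and among genes with 10 counts in every library the other 5 were called and *Ms4a15* was not tested. A gene was called when its adjusted p (Benjamini-Hochberg) was under 0.05 by edgeR's quasi-likelihood test with series and genotype as terms. No gene was called lower by edgeR, while 1772 genes had an unadjusted p under 0.05 in that direction and DESeq2 called 78 genes lower and 81 higher. At an unadjusted p under 0.05 edgeR named 15.3 percent of all genes, 1832 higher (7.77 percent) and 1772 lower (7.52 percent). Whole brains were sequenced, so fewer cells of a type and less RNA per cell cannot be told apart in any of these values.

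A measure of transcript length moved with the split. The longest annotated transcript had a median of 4288 bases among the genes higher at an unadjusted p under 0.05, of 2343 bases among those lower and of 2757 bases over all genes tested. In the PWS-IC series the medians were 4230 bases for higher, 2191 for lower and 2855 for all genes. In the PWS-cr series they were 3487, 2911 and 2856 bases, so the lower genes there were not shorter than all genes. Among the 6 called genes the longest transcript ran from 1713 bases in *Ms4a15* to 5265 bases in *Sall1*. The part of transcript length in the results was not tested.

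For the 3 genes with the smallest p, the 250 bases before the RefSeq start are shown beside those of *Tbx21*, since these genes moved with it from brain to brain. The sequences are from RefSeq on GRCm38.p6 (mm10), written 5′ to 3′ on the gene's strand. Capitals mark the core of the T-box site, GGTGTG or its reverse complement CACACC, and the GC box of Sp proteins, GGGCGG or its reverse complement CCGCCC.
Tbx21: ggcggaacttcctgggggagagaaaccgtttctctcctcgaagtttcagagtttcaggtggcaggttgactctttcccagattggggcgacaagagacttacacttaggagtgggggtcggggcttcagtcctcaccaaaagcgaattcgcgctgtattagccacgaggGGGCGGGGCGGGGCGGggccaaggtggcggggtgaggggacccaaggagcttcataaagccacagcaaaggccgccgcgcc
Cdhr1: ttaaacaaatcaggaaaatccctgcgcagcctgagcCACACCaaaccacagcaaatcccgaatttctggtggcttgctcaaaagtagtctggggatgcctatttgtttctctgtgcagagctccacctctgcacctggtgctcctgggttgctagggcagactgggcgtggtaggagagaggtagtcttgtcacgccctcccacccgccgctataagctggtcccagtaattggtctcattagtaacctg
Ms4a15: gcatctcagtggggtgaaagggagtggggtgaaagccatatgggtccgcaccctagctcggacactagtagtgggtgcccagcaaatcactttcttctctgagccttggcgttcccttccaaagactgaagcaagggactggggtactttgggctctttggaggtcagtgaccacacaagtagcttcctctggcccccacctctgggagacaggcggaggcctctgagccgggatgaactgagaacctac
Frmd7: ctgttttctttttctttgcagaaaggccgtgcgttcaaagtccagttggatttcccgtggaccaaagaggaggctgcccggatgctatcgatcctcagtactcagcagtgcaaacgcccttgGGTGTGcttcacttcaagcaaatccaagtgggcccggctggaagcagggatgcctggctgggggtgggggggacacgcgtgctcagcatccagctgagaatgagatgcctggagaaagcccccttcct
These windows lie at chr11:97115332-97115581, chr14:37098348-37098597, chr19:10993251-10993500 and chrX:50942770-50943019, all on the minus strand. The T-box core was found once in the *Cdhr1* window and once in the *Frmd7* window, and the windows of *Tbx21* and *Ms4a15* did not hold these letters. On either strand, 16.3 percent of 32851 RefSeq windows of the same length hold this core. The longer T-box sequence AGGTGTGA or its reverse complement TCACACCT, held by 1.12 percent of the windows, was in none of the 4. The *Tbx21* window held 3 overlapping copies of the GC box, which 32.7 percent of windows hold at least once. A match of letters is no binding site, and no match says only that these letters are not in this window.

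*Cdhr1* (chr14:37077857-37098347, minus strand) encodes a cadherin first known from photoreceptors and is a standard marker of mitral and tufted cells. Its level was 59.3, 57.2 and 51.4 CPM in the high PWS-cr pups 1_1_Cr, 1_2_Cr and 2_2_Cr. In the high libraries of the PWS-IC series it was 42.7, 36.6, 45.6, 41.9 and 46.6 CPM in 1_1_IC, 4_3_IC, 4_4_IC, 4_5_IC and 4_6_IC. Every high library lay above every low one, since the low libraries ran from 15.2 to 30 CPM with a median of 19.3 CPM, and the highest of them was 3_6_Cr, which also had the most *Tbx21* reads of the low group. Between high and low brains the log2 fold change was 1.39, with an SE of 0.139 and an adjusted p of 0.00013 (edgeR). The left-out libraries 1_3_IC and 1_7_IC held 17.6 and 13.2 CPM, within and below the range of the low brains, to which their *Tbx21* counts of 13 and 19 would have assigned them.

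*Ms4a15* (chr19:10978307-10993250, minus strand) belongs to the MS4A family of membrane-spanning proteins. Its counts were low: 40 to 83 reads in the high libraries and 1 to 23 reads in the low ones, with medians of 59.5 and 3.5. It passed the filter on low counts only through the high libraries, so a gene with its counts had to differ, and its call adds no support to the others. In CPM the high libraries ran from 0.635 in 4_5_IC to 1.81 in 1_1_Cr and the low ones from 0.0185 in 3_1_Cr to 0.41 in 3_6_Cr, with no overlap. The fitted log2 fold change was 4.00 with an SE of 0.481 (adjusted p = 0.00124, edgeR), the largest of the 6.

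*Frmd7* (chrX:50895180-50942710, minus strand), a FERM-domain protein gene whose loss causes congenital nystagmus in people, showed the same order. Its level was 2.4, 2.43 and 1.99 CPM in the high PWS-cr pups 1_1_Cr, 1_2_Cr and 2_2_Cr. In 1_1_IC, 4_3_IC, 4_4_IC, 4_5_IC and 4_6_IC it was 1.73, 2.02, 1.48, 1.46 and 1.71 CPM. The low libraries stayed below all of these, from 0.255 CPM in 1_5_Cr to 1.1 CPM in 3_6_Cr with a median of 0.628 CPM. Its log2 fold change was 1.87 with an SE of 0.241 (adjusted p = 0.00221, edgeR).

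*Sp8* (chr12:118846329-118852576, plus strand), a zinc-finger factor needed for periglomerular interneurons of the bulb, was at 15.9, 19.3 and 17.5 CPM in the high PWS-cr pups and between 16.2 and 19.2 CPM in the high libraries of the PWS-IC series. The low libraries ran from 6.39 CPM in 1_5_Cr to 15.6 CPM in 1_3_Cr with a median of 12.3 CPM. The groups therefore met without overlapping, and the log2 fold change was 0.84 with an SE of 0.126 (adjusted p = 0.0134, edgeR). *Sall1* (chr8:89027235-89044162, minus strand), a zinc-finger factor required for the bulb to form and also expressed by microglia, ran from 36.7 to 40.8 CPM in the high libraries and from 27 to 36.2 CPM in the low ones. Its log2 fold change of 0.36 had an SE of 0.0552 (adjusted p = 0.0177, edgeR) and was the smallest of the 6. *Cpne6* (chr14:55510445-55517431, plus strand), a calcium-dependent phospholipid-binding protein of neurons, overlapped between the groups, with 22.9 to 38.3 CPM in the high and 15.3 to 26.9 CPM in the low libraries, with a log2 fold change of 0.61 and an SE of 0.1 (adjusted p = 0.0348, edgeR).

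**Figure D2:**
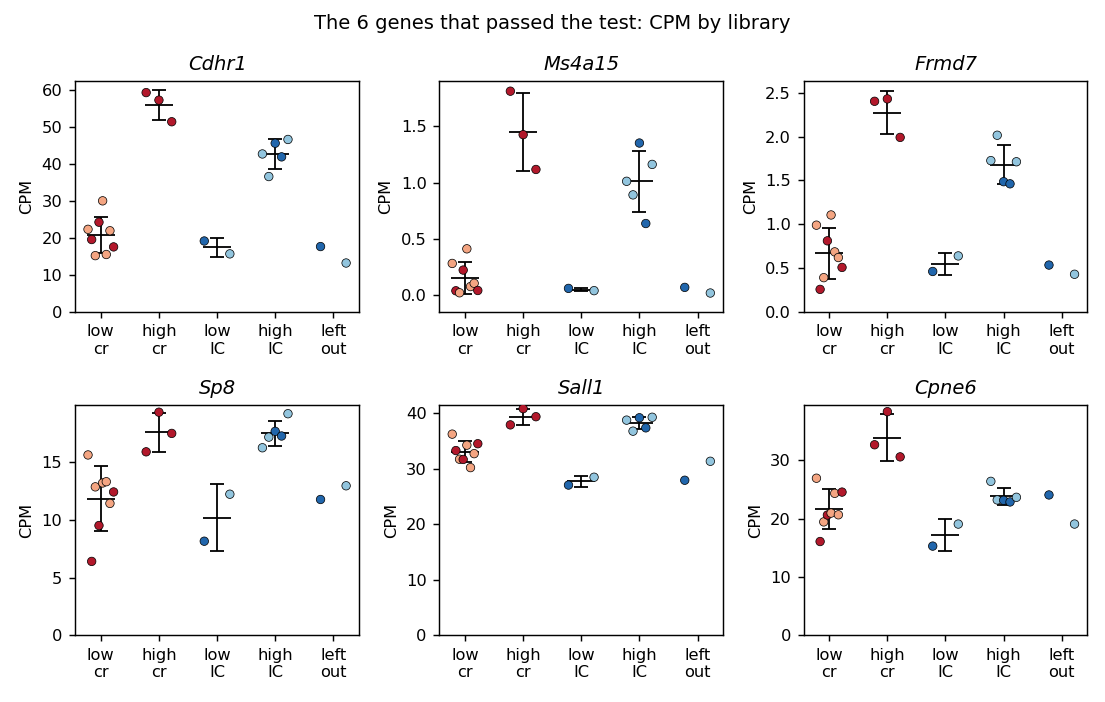
Level (y axis, CPM) of the 6 genes that passed the test, in low and high libraries of the PWS-cr series (cr) and the PWS-IC series (IC) and in the 2 left-out libraries (x axis). Points are libraries coloured by genotype as in the plot of *Tbx21* reads (dark for deletion, light for WT), and bars are the mean ± SD. For *Cdhr1* the low libraries lie between 15.2 and 30 CPM and the high ones between 36.6 and 59.3 CPM.

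Besides *Tbx21*, 7 genes had every high library above every low one, 0.0297 percent of the genes tested, and none had the reverse order. These are 5 of the 6 called genes, without *Cpne6*, and *Prss56* and *Akr1c18*. *Akr1c18*, an enzyme that breaks down progesterone, differed by 1.45 on the log2 scale (adjusted p = 0.132, edgeR) and was named only after its values were seen.

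After these 6, *Igf1* and *Tfap2e* had the smallest p, followed by *Glipr2*, *Gm16364*, *Tcea1-ps1* and *Prss56* with an adjusted p of 0.0702 each (edgeR). *Tfap2e*, the AP-2 epsilon transcription factor gene of bulb projection neurons, was between 0.994 CPM in 1_1_IC and 2.15 CPM in 4_4_IC among the high libraries. In the low libraries it lay between 0.164 and 1.05 CPM, the highest again in 3_6_Cr, so the groups overlapped in 1 pair of libraries. The difference was 1.92 on the log2 scale (adjusted p = 0.0612, edgeR). *Igf1*, a secreted growth factor gene, was between 31.3 and 45.1 CPM in the high and between 24.6 and 32.9 CPM in the low libraries, 0.46 apart on the log2 scale (adjusted p = 0.0612, edgeR). *Glipr2* had the smallest p among genes with lower levels in the high brains, with a difference of -0.33 on the log2 scale.

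Litter was not balanced across the split. All 4 libraries of litter 4 of the PWS-IC series were high, all 3 of litter 3 and all 3 of litter 4 of the PWS-cr series were low, and the 1 library of litter 2 of the PWS-cr series was high. Only litter 1 of each series held both kinds of brain. In litter 1 of the PWS-cr series *Cdhr1* was at 59.3 and 57.2 CPM in the high pups and at 22.3 and 19.5 CPM in the low pups. In litter 1 of the PWS-IC series it was at 42.7 CPM in the high pup and at 19.1 and 15.6 CPM in the low pups. With litter as a block, 1 gene was called, *Cdhr1*, at 1.44 on the log2 scale (adjusted p = 0.0371, edgeR). The blocked differences of the others were 4.06 for *Ms4a15* (adjusted p = 0.0841), 1.94 for *Frmd7* (adjusted p = 0.495), 0.82 for *Sp8* (adjusted p = 0.896), 0.30 for *Sall1* (adjusted p = 0.896) and 0.70 for *Cpne6* (adjusted p = 0.8), all by edgeR. The blocked and unblocked differences of *Ms4a15*, *Frmd7* and *Sp8* were thus of like size, while their calls were lost.

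Library by library, the tests leaned on different brains. Without 1_2_Cr or without 1_10_IC, 3 genes were called over both series, and they were *Cdhr1*, *Frmd7* and *Ms4a15*, which were called whichever library was left out. The call of *Cpne6* was lost in 8 of these 18 fits, that of *Sall1* in 4 and that of *Sp8* in 2. *Cpne6* was also not called with sex as a term. Without 1_1_IC, 21 genes were called, 13 higher and 8 lower, and without 1_5_IC or without 4_1_Cr 10 were called. With both left-out libraries included as labelled, 14 genes were called, all higher. They include *Cdhr1*, *Ms4a15*, *Frmd7*, *Sp8* and *Sall1*, and beyond these *Tfap2e*, *Igf1* and *Prss56*, while *Cpne6* was not called (0.47 on the log2 scale, adjusted p = 0.241, edgeR).

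Reads of a caudal gene went with the split among the PWS-cr pups. *Hoxb8* (chr11:96281905-96285315, plus strand), a gene of the hindbrain and spinal cord, was at 1 to 10 reads in the 3 high PWS-cr pups and at 147 to 290 reads in the 3 low ones. Since all 5 WT pups of that series were low and genotype is a term, the difference there was estimated from these 6 pups alone. The high PWS-cr brains thus held more *Tbx21* and fewer *Hoxb8* reads than the low ones, and the parts of the bulb and of the caudal tissue in a difference between them cannot be told apart. In the PWS-IC series the groups overlapped in *Hoxb8*. The high libraries ran from 0.191 CPM in 4_5_IC to 13 CPM in 1_1_IC, and the low ones were at 12.9 CPM in 1_10_IC and 0.0187 CPM in 1_5_IC. With the *Hoxb8* level as a further term 19 genes were called (0.0806 percent), 9 higher (0.0382 percent) and 10 lower (0.0424 percent), and the 6 genes named above were all among the higher. In that fit 6.81 percent of genes were higher and 5.79 percent lower at an unadjusted p under 0.05. *Cdhr1* then differed by 1.40 on the log2 scale (adjusted p = 0.000607, edgeR), and *Igf1* by 0.52 (adjusted p = 0.0083, edgeR).

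**Figure D3:**
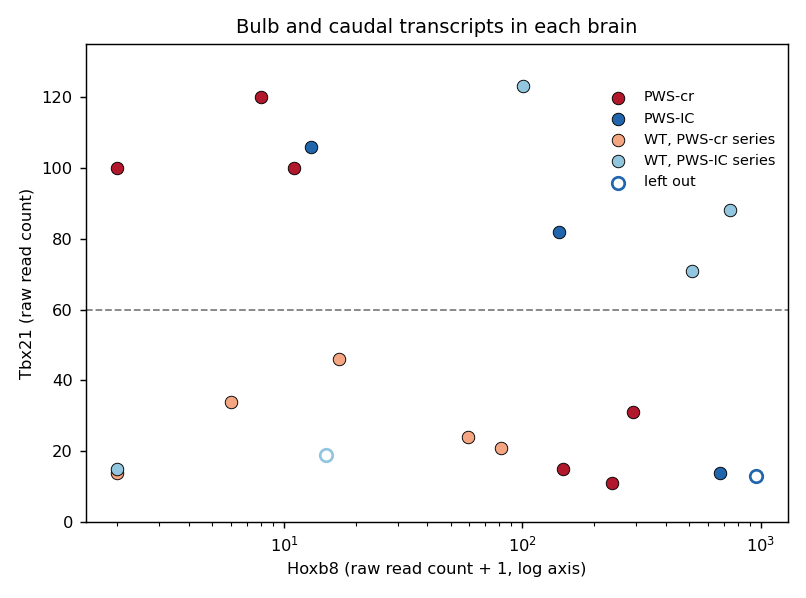
Raw *Tbx21* count (y axis) against raw *Hoxb8* count plus 1 (x axis, log scale) in the 20 libraries, coloured by genotype and series, with open circles for the 2 left-out libraries. The 3 high PWS-cr pups have 1 to 10 *Hoxb8* reads and the 3 low ones 147 to 290, while high libraries of the PWS-IC series reach 745 reads.

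Within the PWS-cr series no gene of 22170 was called by edgeR, while 1746 had an unadjusted p under 0.05 (7.88 percent). Of these, 591 were higher (2.67 percent) and 1155 lower (5.21 percent). DESeq2 called 76 of 22161, 11 higher and 65 lower. The higher ones include *Cdhr1*, *Sp8* and *Trh*. The lower ones include 7 of the 17 caudal hindbrain and spinal cord genes with an adjusted p. Without 4_2_Cr edgeR called 59 genes, without 3_1_Cr 5, and without 3_6_Cr or 4_3_Cr 1. The log2 fold change of *Cdhr1* was 1.45 in these pups (SE 0.214, adjusted p = 0.0894, edgeR). *Hoxb7* differed by -6.95 on the log2 scale with the same adjusted p of 0.0894, and as its counts in the high pups were 0, 1 and 0 reads, the size depends on the fit. In the 6 PWS-cr pups alone, a setting added after the data were seen, 112 genes were called, 7 higher and 105 lower.

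Within the PWS-IC series, where 5 high and 2 low libraries were compared, 11 of 21912 genes were called (0.0502 percent), 6 higher (0.0274 percent) and 5 lower (0.0228 percent). At an unadjusted p under 0.05, 7.2 percent of genes were higher and 6.67 percent lower. *Cdhr1* (1.32 on the log2 scale, SE 0.112, adjusted p = 0.00346), *Ms4a15* (4.35, SE 0.506, adjusted p = 0.0331) and *Frmd7* (1.59, SE 0.205, adjusted p = 0.0403) were among the higher genes by edgeR. The other 3 higher genes, *Gm14443*, *Gm14399* and *Hmgb1-ps7*, are predicted genes or a pseudogene, and the 5 lower ones are *Rpl35a*, *Rpl21*, *Tcea1-ps1*, *5930438M14Rik* and *Tmem44*. None of these 8 was called over both series. *Ms4a15* had 3 and 2 reads in the low libraries 1_10_IC and 1_5_IC, so here too it passed the filter only through the high libraries. Leaving out 1_10_IC or 1_5_IC leaves 1 low library. Of the fits that kept both, the call of *Frmd7* was lost without 4_3_IC, 4_4_IC, 4_5_IC or 4_6_IC. That of *Ms4a15* was lost without 4_3_IC or 4_6_IC. Over all 7 fits that leave out a library, *Frmd7* differed by 1.51 to 1.69 and *Ms4a15* by 4.06 to 4.69 on the log2 scale. Both low libraries are from litter 1, and with litter as a block 11 genes were called. Of these, 2 were shared with the 11 without it, *Cdhr1* and *Rpl35a*. The blocked calls also include *Xist*, *Ddx3y* and *Eif2s3y*, genes of the sex chromosomes. Only litter 1 holds both kinds of brain, and there the high WT pup 1_1_IC is female and the low WT pup 1_5_IC male. In the blocked fit the split and sex therefore cannot be told apart. With both low libraries kept, the count still rested on single libraries. It was 76 genes without 1_1_IC, 5 without 4_4_IC or without 4_5_IC, 4 without 4_3_IC and 3 without 4_6_IC.

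The series share no library, so their results can be set side by side. Of 20903 genes tested in both, 1683 had an unadjusted p under 0.05 in the PWS-cr series and 2930 in the PWS-IC series, and 266 had one in both. Of these, 69 went in opposite directions and 197 in the same direction, which is 11.7 percent of the first and 6.72 percent of the second. Over all genes tested in each series, 7.88 percent had such a p in the PWS-cr and 13.9 percent in the PWS-IC series, in either direction. The 11.7 and 6.72 percent count only genes with the same direction, so they are not measures of the same kind as these shares. Whether the overlap exceeds what these shares would give was not tested. Of the 197, 105 were higher in both series and 92 lower. Among those higher were the 6 called genes and *Tfap2e*, *Prss56*, *Erbb3*, *Igf1*, *Eomes* and *Prokr2*. The 6 were called over these same libraries, so their place here is no independent evidence. Among those lower were *Glipr2* and *Zfp503*. The test of the difference between the series called 10 genes (0.0424 percent), 4 with a larger value in the PWS-IC series (0.017 percent) and 6 with a smaller one (0.0255 percent), while 5.78 and 4.23 percent of genes had an unadjusted p under 0.05 in these directions. Of the 6 genes called over both series, none was among the 10, with adjusted p-values from 0.457 for *Sall1* to 0.923 for *Sp8*. *Sall1* had an unadjusted p of 0.0285 (edgeR) for this difference, at 0.24 in the PWS-cr and 0.47 in the PWS-IC series.

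Of the genes of mitral and tufted cells, 15 were tested besides *Tbx21*. *Cdhr1* was called, 3 had an unadjusted p under 0.05 with a higher level and 1 with a lower one, and 8 of 15 had a difference above 0. Their median was 0.18 on the log2 scale, beside 0.01 over all genes, of which 51.5 percent were above 0. At that p 7.77 percent of all genes were higher and 7.52 percent lower. The list median varied with the fit. It was 0.32 in the PWS-cr series, 0.01 in the PWS-IC series and 0.10 with the *Hoxb8* level as a term. *Eomes*, the T-box factor gene that acts in the same cells, differed by 0.56 (unadjusted p = 0.0022, adjusted p = 0.206, edgeR), and *Nmb*, a neuropeptide gene, by 0.28 (adjusted p = 0.253, edgeR). *Reln*, the secreted guidance protein reelin, differed by 0.18 (adjusted p = 0.379) and the cortical T-box gene *Tbr1* by 0.19 (adjusted p = 0.667), both by edgeR. *Reln* and *Tbr1* overlapped widely between the groups, with *Reln* at 325 to 414 CPM in the high and 250 to 421 CPM in the low libraries, and both are also expressed in the cortex. *Lhx1*, a LIM-homeodomain factor gene also expressed in the hindbrain and spinal cord, was the member with the lower level, at -0.41 (adjusted p = 0.299, edgeR). DESeq2 also called *Cdhr1* alone of the list, beside 81 genes higher and 78 lower among all 23558.

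Of the 24 interneuron and precursor genes, *Sp8* was called, 10 had an unadjusted p under 0.05 with a higher level and 1 with a lower one, and 22 of 24 had a difference above 0 with a median of 0.24 on the log2 scale. Over all genes 7.77 percent were higher and 7.52 percent lower at that p, and 51.5 percent were above 0. *Etv1*, an ETS factor gene of bulb dopaminergic cells, was at 57.4 to 77.8 CPM in the high and 49.8 to 67.2 CPM in the low libraries and differed by 0.28 (adjusted p = 0.201, edgeR). *Trh*, the thyrotropin-releasing hormone gene, differed by 0.56 (adjusted p = 0.201) and *Scgn*, a calcium-binding protein of interneurons, by 0.60 (adjusted p = 0.238), both by edgeR. DESeq2 called *Etv1* and *Trh* as well as *Sp8* higher, beside 81 genes higher and 78 lower among all 23558. *Th*, which makes dopamine, was at 5.25 to 6.72 CPM in the high and 4.12 to 7.51 CPM in the low libraries, a difference of 0.12 (adjusted p = 0.691, edgeR). *Calb2*, the calretinin gene of periglomerular cells, differed by 0.01 (adjusted p = 0.979, edgeR), and this sign turned in several alternatives. Both genes are also expressed by neurons outside the bulb.

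Within each series the list gave other values. In the PWS-cr series the interneuron genes had a median of 0.37 on the log2 scale, with 13 at an unadjusted p under 0.05 and a higher level, beside 2.67 percent of all genes. In the PWS-IC series the median was 0.04, with 3 such genes beside 7.2 percent of all genes. *Dlx1*, a homeobox factor gene of all ventral forebrain interneurons, differed by 0.69 in the first and by 0.04 in the second, a difference between the series that did not pass the test (adjusted p = 0.438, edgeR). *Dlx5* differed by 0.69 and by 0.05 (adjusted p of the difference 0.524, edgeR). With the *Hoxb8* level as a term the median over both series was 0.17.

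Of the 12 ensheathing glia genes, none was called by edgeR over both series. At an unadjusted p under 0.05, 5 were higher and 2 lower, beside 7.77 and 7.52 percent of all genes. DESeq2 called *Prss56* and *Erbb3* higher, beside 81 genes higher and 78 lower among all 23558. *Prss56*, a serine protease gene, was at 2.36, 1.65 and 1.77 CPM in the high PWS-cr pups and at 1.83, 1.68, 1.05, 1.1 and 1.77 CPM in 1_1_IC, 4_3_IC, 4_4_IC, 4_5_IC and 4_6_IC. All low libraries lay below these, from 0.037 to 0.82 CPM, and the difference was 2.61 on the log2 scale (SE 0.486, adjusted p = 0.0702, edgeR). *Erbb3*, the neuregulin receptor of axon-wrapping glia, differed by 1.17 (adjusted p = 0.108), *Mybpc1* by 0.90 (adjusted p = 0.3) and *Frzb*, a secreted Wnt antagonist, by 0.83 (adjusted p = 0.209), all by edgeR. The general glial genes of the list gave other values. *Sox10* differed by 0.06 (adjusted p = 0.805), *S100b* by -0.75 (adjusted p = 0.251) and the neurotrophin receptor *Ngfr* by -0.46 (adjusted p = 0.253), by edgeR, and *S100b* and *Ngfr* were lower in the PWS-cr series, at -1.34 and -0.91, where *Hoxb8* reads were fewer too. The list's median was 0.24 over both series, 0.04 in the PWS-cr series, 0.55 in the PWS-IC series and 0.66 with the *Hoxb8* level as a term.

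**Figure D4:**
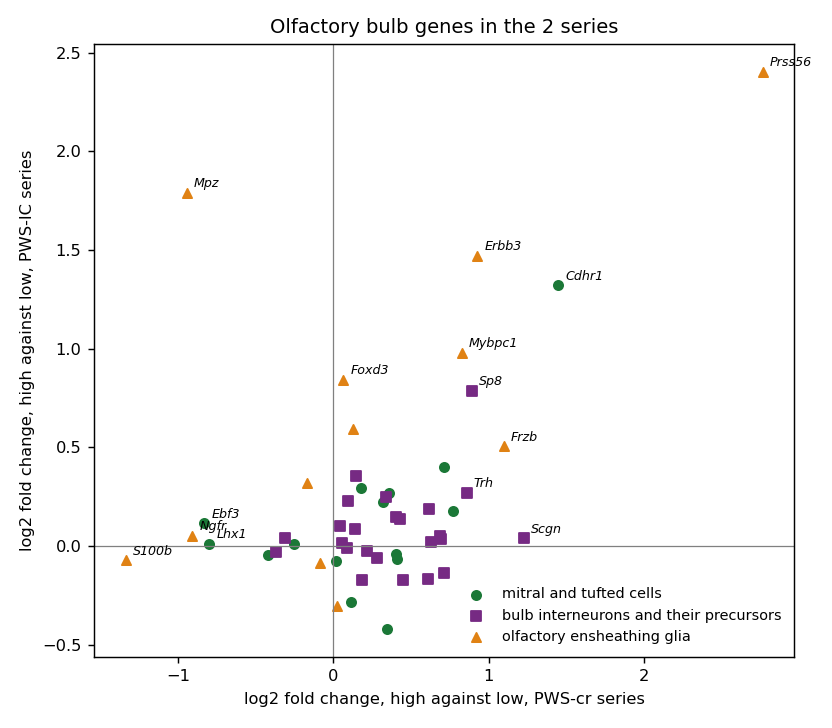
Difference between high and low brains (log2 fold change) in the PWS-cr series (x axis) against that in the PWS-IC series (y axis) for mitral and tufted cell genes, interneuron genes and ensheathing glia genes, 1 point a gene, with *Tbx21* left out. *Cdhr1* (1.45 and 1.32), *Sp8* (0.89 and 0.79) and *Prss56* (2.76 and 2.40) lie far from 0 on both axes, and *Scgn* (1.23 and 0.04) on the first alone.

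No gene of the nose passed the test. Of 18 genes of the olfactory epithelium, 14 passed the filter and none was called by edgeR, nor were the 6 to which DESeq2 gave an adjusted p. Of the 14, 2 had an unadjusted p under 0.05 with a higher level, beside 7.77 percent of all genes. A difference above 0 was seen in 7 of 14, with a median of 0.00. *Omp*, the marker of mature olfactory sensory neurons, was at 10 to 54 reads over the 18 libraries, with 0.362 to 0.558 CPM in the high and 0.184 to 0.997 CPM in the low libraries. Its difference was 0.82 on the log2 scale (unadjusted p = 0.0204, adjusted p = 0.262, edgeR), and the library with the most was a low one, 4_1_Cr. Of 1410 olfactory receptor genes listed, 49 were tested, and their summed reads were 763 to 2235 in the high and 886 to 2955 in the low libraries.

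The signals and receptors that guide axons and migrating cells in the bulb were described by 20 genes. None was called by edgeR, nor by DESeq2 among the 19 with an adjusted p. At an unadjusted p under 0.05, 1 of the 20 was higher and 2 were lower, beside 7.77 and 7.52 percent of all genes. A difference above 0 was seen in 10 of 20. The member with the higher level was *Prokr2*, the receptor that migrating interneurons need to reach the bulb, at 16.8 to 27 CPM in the high and 14 to 25.3 CPM in the low libraries and a difference of 0.30 (adjusted p = 0.211, edgeR). Its ligand *Prok2* differed by 0.32 (adjusted p = 0.565, edgeR), with 37 to 73 reads in the high and 17 to 83 reads in the low libraries.

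No gene of neighbouring rostral tissue was called by edgeR. Of 18 genes of rostral patterning and septum none was called by edgeR, nor by DESeq2 among the 16 with an adjusted p, none had an unadjusted p under 0.05, and the median was 0.02. Within the PWS-cr series 4 were higher and 3 lower at that p, beside 2.67 and 5.21 percent of all genes, with a median of 0.19. Within the PWS-IC series 3 were lower, beside 6.67 percent of all genes, with a median of -0.04. Of 16 genes of cortical projection neurons, likewise, none was called by either tool and none had an unadjusted p under 0.05, with a median of 0.06, while 3 were lower at that p within the PWS-IC series. Of 16 striatal genes none was called by edgeR. DESeq2 called *Ebf1* and *Zfp503* lower, beside 78 lower among all 23558 genes. A lower level at an unadjusted p under 0.05 was seen in 4 of the 16, beside 7.52 percent of all genes. These 4 were *Ebf1* at -0.35 (adjusted p = 0.201), *Zfp503* at -0.32 (adjusted p = 0.201), *Penk* at -0.36 (adjusted p = 0.216) and *Tac1* at -0.26 (adjusted p = 0.205), all by edgeR. *Ebf1* and *Zfp503* are transcription factor genes and *Penk* and *Tac1* encode neuropeptides of striatal projection neurons, and all 4 are also expressed elsewhere in the brain.

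Toward the back, all 11 cerebellar genes tested had a difference below 0, with a median of -0.32 on the log2 scale and 3 at an unadjusted p under 0.05. None was called by edgeR, nor by DESeq2 among the 10 with an adjusted p. Over all genes 51.5 percent had a difference above 0, and 7.77 percent were higher and 7.52 percent lower at that p. Of 21 genes of the caudal hindbrain and spinal cord, mostly Hox genes, none was called by edgeR. At an unadjusted p under 0.05, 9 were lower and 1 higher. DESeq2 called 4 of the list lower, beside 78 lower among all 23558 genes. Their median was -1.58 over both series, -3.46 in the PWS-cr series and 0.38 in the PWS-IC series, so the direction over both series was that of the PWS-cr pups. Their summed level ran from 4.18 to 128 CPM in the high and from 8.06 to 191 CPM in the low libraries.

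**Figure D5:**
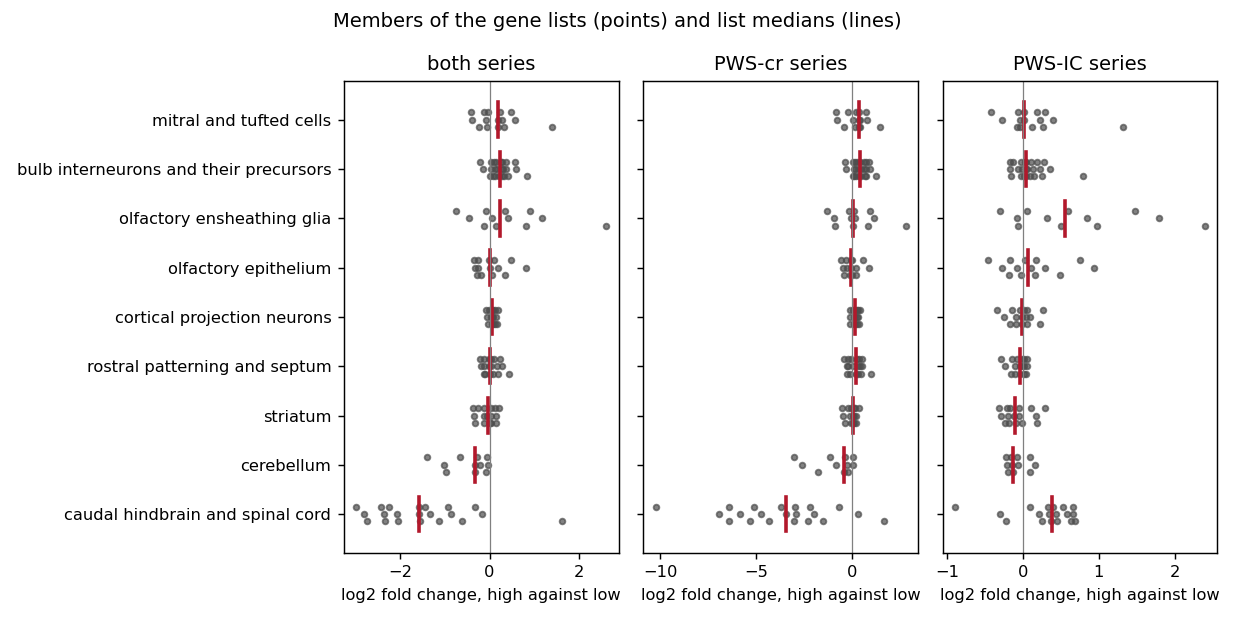
Difference between high and low brains (x axis, log2 fold change, scaled separately in each panel) of the members of 9 gene lists (rows), over both series, in the PWS-cr series and in the PWS-IC series. Points are genes, with *Tbx21* left out, and red lines are list medians. The caudal list has a median of -3.46 in the PWS-cr series and of 0.38 in the PWS-IC series.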

How the data were processed

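The labels give RNA sequencing of polyadenylated RNA from day 0 brains. As the submitters' processing notes and the study's methods give it, the authors used STAR on mm10, with multimapping alignments in random order, and featureCounts on libraries that do not mark strand, and deposited raw counts per gene, the unit used here. They removed 1 library of each series. The deposited tables also hold 60 columns of scaled counts, FPKM and TPM and, in each table, 6 columns of the authors' own DESeq2 comparison, none of which was used. The tables were joined on the gene identifier (55406 genes in both).

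Genes that reached 10 counts in 4 or more libraries entered glmQLFit and glmQLFTest of edgeR 4.0.16 under R 4.3.3, after TMM scaling, with series and genotype as terms (genotype alone within a series). *Tbx21* stayed in the fit but out of the adjustment. The standard error is the log2 fold change over the square root of F. CPM was scaled over the 20 libraries. DESeq2 1.42.0, RLE scaling, other filters, litter as a replicate block, sex, the *Hoxb8* level, a threshold on *Tbx21* CPM, the *Tbx21* level as a continuous term, all 20 libraries and leaving out each library were alternatives. Litter comes from the first number of the sample titles and the study's methods. The scripts were tested on simulated data.

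The split, the members and the 22 gene lists were chosen with earlier results of these data known, so counts on a list are no independent evidence, and lists were not tested as sets. Named genes are *Tbx21*, up to 10 called rises and 10 called falls with 1 sign in both series, called members of the bulb, nose and rostral lists, and *Eomes*, *Cdhr1*, *Tbr1*, *Reln*, *Sp8*, *Th*, *Calb2*, *Etv1*, *Omp*, *Prok2*, *Prokr2* and *Hoxb8*. *Snrpn* checks the genotype labels of the PWS-IC series and *Eif2s3y* the sex labels. The other genes were named after their values were seen. No 2 libraries of a group agreed within sampling noise (lowest chi-square per degree of freedom 6.08). Each library is 1 pup. Gene positions are from GENCODE vM21 on mm10, promoter windows from RefSeq on GRCm38.p6, where 35 of 43 named genes had one.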

Additional observations from a re-analysis of the deposited data

Results flagged for a closer look

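Among 80 sets of values (the named genes in the 8 high and in the 10 low libraries), 7 held 1 library far from the others, where chance gives about 1 in 20. In the low brains these were *Omp* in 4_1_Cr (0.997 CPM, next 0.374 CPM), *Hoxb8* in 1_10_IC (12.9 CPM, next 5.33 CPM), *Tfap2e* in 3_6_Cr (1.05 CPM, next 0.552 CPM), *Tac1* in 1_10_IC (32.8 CPM, next 26.8 CPM) and *Rpl35a* in 1_5_IC (58.6 CPM, next 68.8 CPM). In the high brains these were *Mybpc1* in 1_1_IC (3.89 CPM, next 4.93 CPM) and *S100b* in 1_1_IC (8.8 CPM, next 5.47 CPM). Library 1_1_IC is also the high brain with the most *Hoxb8* reads, and 3_6_Cr is the low brain with the most *Tbx21* reads.

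The effect of the split differed between the series by its own test for 10 genes. One of them is *Rpl35a*, a ribosomal protein gene, whose difference was 1.01 lower on the log2 scale in the PWS-IC than in the PWS-cr series (value -1.01, adjusted p = 1.06e-05, edgeR). It was at 30 to 33.9 CPM in the 5 high libraries of the PWS-IC series and at 69.4 and 58.6 CPM in its 2 low ones, while all libraries of the PWS-cr series lay between 68.8 and 80 CPM. The left-out libraries held 62 and 31.4 CPM.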

How the results depend on the processing

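Over both series, where 6 genes were called, 60 were called with no filter on low counts, 159 by DESeq2, 1 with litter as a replicate block, 19 with the *Hoxb8* level added, 14 with all 20 libraries as labelled and 13 with the *Tbx21* level as a continuous term. Leaving out each library gave 3 to 21. RLE scaling and the threshold on *Tbx21* CPM gave 6 and the sex term and the filter of 10 counts in every library gave 5. In the PWS-cr series, with 0 called, there were 87 with no filter, 76 by DESeq2, 112 in the 6 PWS-cr pups alone and 0 to 59 without each library. In the PWS-IC series, with 11, there were 725 with no filter, 7 with 10 counts in every library, 123 by DESeq2, 73 with sex, 779 with the *Hoxb8* level and 3 to 1645 without each library, the most without 1_5_IC, which leaves 1 low library there. For the difference between the series, with 10, there were 107 with no filter, 4 with 10 counts in every library, 76 by DESeq2 and 7 to 652 without each library (652 without 1_5_IC, 25 without 1_10_IC and 23 without 1_1_IC). The causes were not tested. Litter as a block changed no other count by over 1.5 times, but of the 10 genes called for the difference between the series 3 were among the 9 called with it. Over both series DESeq2 gave *Ms4a15* no adjusted p.

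*Calb2* turned negative with no filter (-0.00583), with all 20 libraries (-0.0996), with the continuous term (-0.0191) and without 1_2_Cr (-0.0562), 3_5_Cr or 1_1_IC (-0.00931), and ran from -0.0903 to 0.0897 without each library. *Sox10* turned negative without 1_5_IC or 1_10_IC (-0.00431) and ran from -0.0308 to 0.108. *Tbx21* by genotype ran from 0.503 to 0.942 CPM in the PWS-cr series and from -0.545 to 0.265 CPM in the PWS-IC series without each library, and was above 0 there without 1_10_IC (0.265) or 4_6_IC (0.168). The fold change of *Ms4a15* rests on 1 to 23 reads in the low brains.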

Other observations

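With the *Hoxb8* level as a term, the 10 genes called lower in the high brains over both series were *Aars*, *Cars*, *Gars* and *Mars*, which encode aminoacyl-tRNA synthetases, the asparagine synthetase gene *Asns*, the mitochondrial folate enzyme genes *Mthfd2* and *Shmt2*, *Eif4ebp1*, an inhibitor of translation, *Tcea1-ps1* and *1700108F19Rik*. The values of *Asns* (-0.35, adjusted p = 0.0083) and *Mthfd2* (-0.53, adjusted p = 0.0283) are from that fit by edgeR. In the fit over both series without that term and with the same filter, edgeR called none of the 10, with an adjusted p of 0.179 for *Asns* and for *Mthfd2*. The test of the difference between the series called *Mthfd2* and *Tcea1-ps1* without that term, and *Tcea1-ps1* but not *Mthfd2* with it. The values of *Mthfd2* and *Tcea1-ps1* over both series are thus not shown to hold alike in each.

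In lists of other tissues and cell types a brain sample can hold, edgeR called no gene over both series. All 12 genes of meninges and fibroblasts had a difference below 0, with a median of -0.21 on the log2 scale and 1 at an unadjusted p under 0.05. Over all genes 51.5 percent had a difference above 0. Thalamus and midbrain had a median of -0.12 with 14 of 15 below 0, hypothalamus one of 0.20 with 9 of 13 above 0, choroid plexus one of 0.06 with 8 of 13 above 0 and dividing cells one of 0.03 with 8 of 12 above 0. Of 10 genes of the oligodendrocyte lineage 1 was higher and 2 lower at an unadjusted p under 0.05 over both series, with a median of -0.09. Over all genes 7.77 percent were higher and 7.52 percent lower at that p. In the PWS-cr series 7 of the 10 were lower, beside 5.21 percent of all genes, with a median of -0.29. In the PWS-IC series 2 were higher, beside 7.2 percent of all genes, with a median of 0.07. Between the series 6 differed at that p, beside 10 percent of all genes. Muscle, cartilage and bone genes summed to 27.6 to 37.1 CPM in the high and 27.6 to 97.6 CPM in the low libraries, and eye genes to 2.91 to 5.37 CPM and 2.55 to 8.08 CPM.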
